A study of Homo sapiens with 3 samples.

Results

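Integrins and the proteins of focal adhesions were followed in HGC-27 cells, an established human line from an undifferentiated gastric carcinoma. The set held 44 genes, taken by gene symbol from a table of 50868 genes: 16 integrin alpha subunits, 8 beta subunits and 20 proteins of the adhesion plaque and its caveolar surroundings. All 44 symbols were found. In the first library the cells had received an siRNA against IRF3, in the second an siRNA against YAP and in the third a control siRNA, each for 48 h at passage 6. Each group was thus 1 culture and 1 RNA sequencing library, with no replicate. Differences below describe these 3 libraries, and no test across samples was possible. The siRNA sequences are not given in the labels. As these were bulk cultures, fewer cells carrying a transcript and less of it per cell cannot be told apart.

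Integrins are cell-surface receptors made of 1 alpha and 1 beta subunit that bind matrix proteins such as fibronectin, laminin and collagen. Inside the cell, talin and kindlin bind the beta tail and switch the receptor on, vinculin ties talin to actin, and the ILK, PINCH and parvin complex together with FAK, SRC, p130Cas and paxillin passes on the signal. In cultured cells these adhesions carry tension, and YAP, a coactivator for TEAD transcription factors, is known to respond to that tension.

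Total counts were between 13949401 and 14941556 per library, and genes at or above 1 FPKM numbered 10854 with IRF3 siRNA, 10899 with YAP siRNA and 11498 with control siRNA. FPKM scales counts by gene length and library total. The label check gave YAP1 561, 337 and 861 counts with IRF3, YAP and control siRNA, a count ratio scaled by library total of 0.380 between YAP siRNA and control (95% interval 0.334 to 0.431). IRF3 itself had 597, 764 and 681 counts in the same order, so its ratio between IRF3 siRNA and control was only 0.818 (0.732 to 0.915). The library labelled IRF3 siRNA is thus only weakly checked by its own target. It also held less YAP1 than control, with a log2 ratio of -0.59. Of 9 epithelial markers only CLDN7 averaged 1 FPKM or more, with sums of 3.14, 3.58 and 2.89 FPKM with IRF3, YAP and control siRNA. Fibroblast and mesenchymal markers, 9 of 10 measured at that level, summed to 1211, 1262 and 1394 FPKM. Most epithelial markers were thus low, and the mesenchymal ones were abundant. These few markers cannot test the stated origin of the line. Leukocyte markers summed to between 8.23 and 8.51 FPKM with 2 of 10 measured, mostly CORO1A, and muscle markers to between 3.36 and 4.69 FPKM with 1 of 6 measured. Of 5 platelet markers none was measured, and GP9, PF4 and PPBP were at 0 in every library. Endothelial markers summed to 57.7, 52.0 and 44.0 FPKM with IRF3, YAP and control siRNA, of which only EGFL7 averaged 1 FPKM or more. The part of these markers in the ratios below was not tested.

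In these cells 26 of the 44 genes averaged 1 FPKM or more over the 3 libraries, here called measured, and 18 did not. The 18 included all the collagen-binding alpha subunits (ITGA1, ITGA2, ITGA10 and ITGA11) and the leukocyte subunits ITGAL, ITGAM, ITGAX, ITGB2 and ITGB7. Just below the limit were TNS1 with a mean of 0.936 FPKM and ITGB3 with 0.988 FPKM. Just above it were PTK2 with 1.21 FPKM and SRC with 1.24 FPKM. Together the 44 genes took 39307 counts with IRF3 siRNA, 34700 with YAP siRNA and 38763 with control siRNA. These were 0.263%, 0.241% and 0.278% of each library's counts.

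No measured gene of the set was past 2-fold in any of the 3 comparisons, on the scale of log2 of FPKM plus 1. The laminin receptor subunit ITGA6 had the lowest count ratio to control with both siRNAs, at 0.430 with IRF3 siRNA and 0.586 with YAP siRNA. Vinculin, a far more abundant transcript, was at 0.621 of its control level under IRF3 siRNA and at 0.635 under YAP siRNA. The fibronectin receptor subunit ITGA5, the most abundant integrin, was 1.33 times its control level with IRF3 siRNA. Under YAP siRNA it was level with control when scaled by library total, and slightly higher with TMM scaling of the counts. Its main partner ITGB1 was lower in both, at 0.656 and 0.789.

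Against control, IRF3 siRNA gave 0 of 26 genes called higher and 0 called lower, where the calls over all 11103 measured genes were 0.387% and 0.612%. For YAP siRNA against control the members gave 0 and 0 again, against 0.351% and 0.468% of all genes. In the direct comparison of IRF3 siRNA with YAP siRNA they gave 0 and 0, against 0.297% and 0.315%. With so few genes past 2-fold anywhere, a count of 0 among 26 does not set the members apart. At a 1.5-fold limit, added after seeing the data, 2 members were lower with IRF3 siRNA (ITGA6 and VCL) and 1 with YAP siRNA (VCL), and none was higher. Over all genes 5.88% and 4.64% were lower at that limit and 1.59% and 1.59% higher.

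The 26 genes had a median log2 ratio to control of -0.16 in the IRF3 siRNA library and -0.15 in the YAP siRNA library, and of -0.02 for IRF3 siRNA against YAP siRNA. Over all measured genes these medians were -0.03, -0.02 and -0.01. Members were below 0 in 16 cases and above it in 10 with IRF3 siRNA, and below in 20 and above in 6 with YAP siRNA. The shares below 0 were 61.5% and 76.9% of the members, against 53.9% and 53.4% of all measured genes. Both comparisons use the same control library, so their signs are not independent. Of the 26 genes, 16 were below 0 in both, 6 above in both and 4 differed in sign.

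Counting error is small at these depths, and many of the small ratios exceeded it. The 95% interval of the count ratio lay below 1 for 14 members and above 1 for 7 with IRF3 siRNA, and over all genes for 32.6% and 24.3%. With YAP siRNA it lay below 1 for 16 members and above 1 for 3, and over all genes for 30.2% and 22.2%. These intervals are exact binomial ones and cover counting error only, since PCR copies are not independent molecules and the spread between cultures was not measured. They also rest on scaling by library total. TMM factors were 0.974, 0.982 and 1.045 with IRF3, YAP and control siRNA, which would raise every ratio to control. Intervals that end just below 1 could then hold 1, and the interval counts were not repeated with that scaling.

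**Figure D1:**
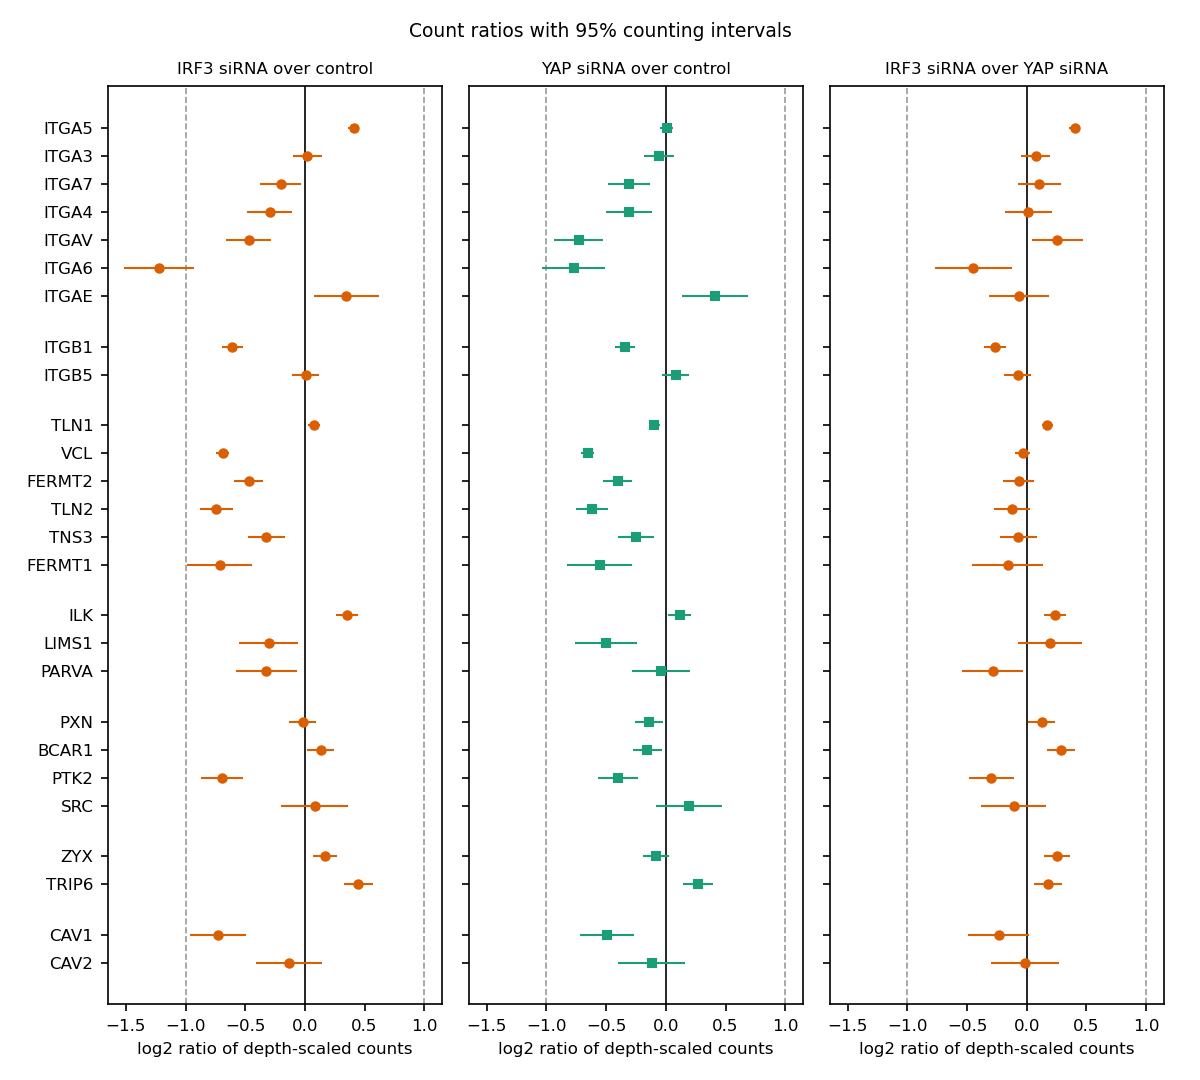
Count ratios, scaled by library total, of the 26 measured genes, by role, for IRF3 siRNA against control, YAP siRNA against control and IRF3 siRNA against YAP siRNA, on a log2 axis. Bars are 95% intervals for counting error only, and dashed lines mark 2-fold. The actin linkers other than TLN1 lie left of 0 in both control comparisons, and ITGA5, TRIP6 and ILK (its sum with the overlapping TAF10 does not) lie right of 0 with IRF3 siRNA.

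Promoter windows of 4 genes on which these results turn are shown because TEAD factors, the DNA-binding partners of YAP, recognise the core GGAATG. The 4 were chosen after their values were seen: VCL, with the lowest log2 ratio of FPKM plus 1 under YAP siRNA, ITGB1 and ITGA5, the leading receptor pair, and ITGA6, with the lowest under IRF3 siRNA. Each is the 250 bases before the RefSeq gene start, on the gene's own strand, 5′ to 3′ (GRCh38.p14), taking the first window listed for each symbol. These starts differ from the gene spans given below for the deposited table. The VCL and ITGB1 windows lie inside those spans, the ITGA5 window partly inside, and the ITGA6 window before its span. Capitals mark GGAATG, searched on both strands. The windows lie at chr10:73997866-73998115 (plus strand) for VCL, chr10:32958231-32958480 (minus) for ITGB1, chr12:54419267-54419516 (minus) for ITGA5 and chr2:172427086-172427335 (plus) for ITGA6.
VCL: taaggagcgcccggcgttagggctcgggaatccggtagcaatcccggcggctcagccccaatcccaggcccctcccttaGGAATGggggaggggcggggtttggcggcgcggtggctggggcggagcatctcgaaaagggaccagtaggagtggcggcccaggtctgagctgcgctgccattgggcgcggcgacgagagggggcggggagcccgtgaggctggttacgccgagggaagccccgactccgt
ITGB1: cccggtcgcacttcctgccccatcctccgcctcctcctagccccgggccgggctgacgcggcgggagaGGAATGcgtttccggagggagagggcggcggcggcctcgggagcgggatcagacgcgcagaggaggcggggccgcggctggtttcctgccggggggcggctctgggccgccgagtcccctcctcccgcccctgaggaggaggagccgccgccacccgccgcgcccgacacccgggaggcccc
ITGA5: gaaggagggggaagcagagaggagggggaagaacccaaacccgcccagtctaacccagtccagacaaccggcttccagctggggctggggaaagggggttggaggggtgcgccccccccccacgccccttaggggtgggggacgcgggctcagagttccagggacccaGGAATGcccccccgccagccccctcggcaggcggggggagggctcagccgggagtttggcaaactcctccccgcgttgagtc
ITGA6: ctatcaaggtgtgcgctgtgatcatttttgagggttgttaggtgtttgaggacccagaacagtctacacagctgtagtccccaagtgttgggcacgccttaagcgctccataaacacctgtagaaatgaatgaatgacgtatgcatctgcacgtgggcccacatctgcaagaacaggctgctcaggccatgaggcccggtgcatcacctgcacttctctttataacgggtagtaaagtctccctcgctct
The core starts 171 bases before the RefSeq start of VCL, 182 before that of ITGB1 and 82 before that of ITGA5, and the ITGA6 window has none. RefSeq windows were matched for 32 of the 44 genes, and 5 of them hold the core (VCL, ITGB1, ITGA5, TRIP6 and ITGA10), against 11.9% of 27305 windows of all genes. The interferon-response core GAAA, any 2 bases, GAAA, searched on both strands, is in none of the 32 and in 3.07% of all windows. The CArG box, bound by serum response factor, is in 1 of the 32 (ITGB6) and in 1.14% of all. A match describes letters in the window and no binding was measured. Of the 4 measured genes with the core, VCL and ITGB1 were below control with YAP siRNA and TRIP6 above it. ITGA5 was level with control when scaled by library total.

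**Figure D2:**
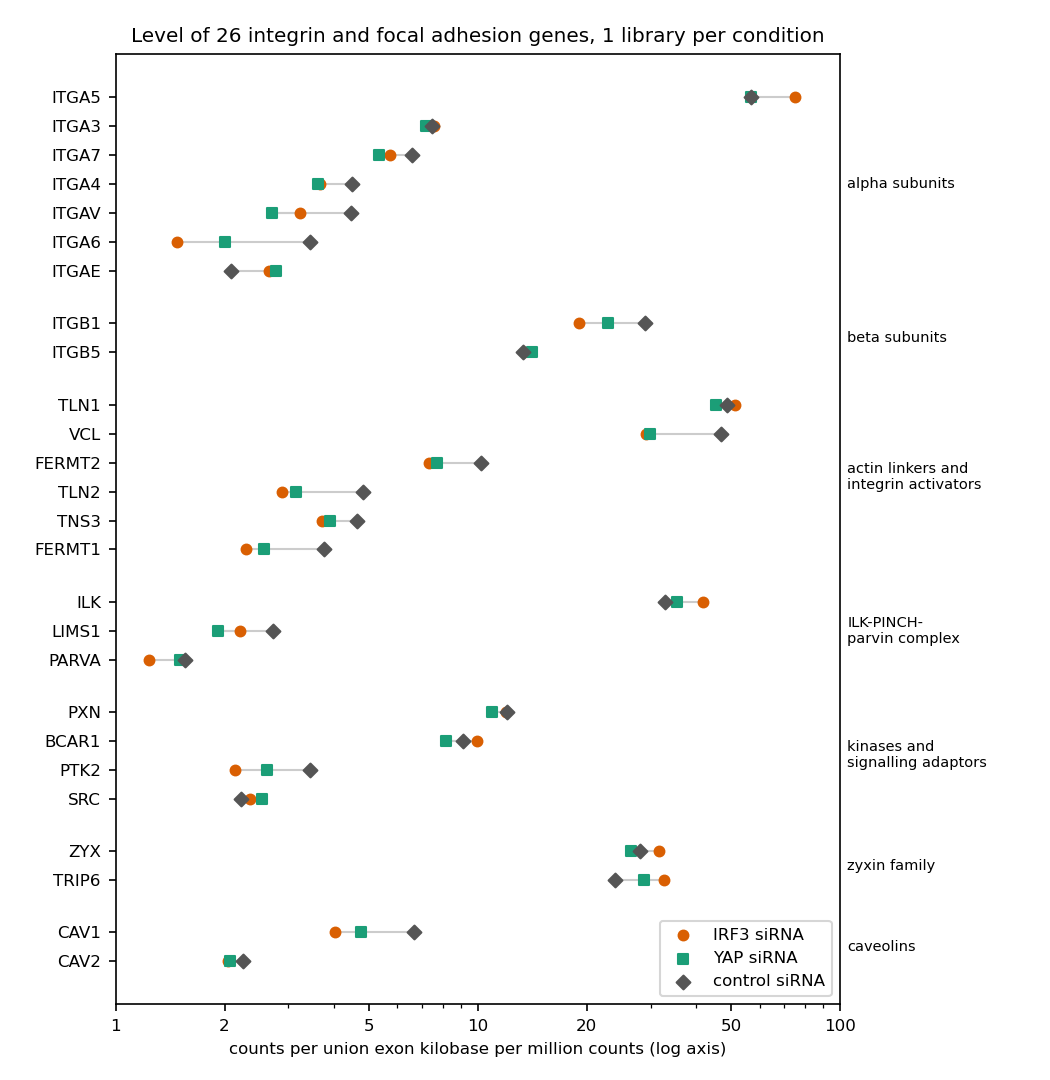
Level of each of the 26 measured genes in the 3 libraries, as library-scaled counts (CPM) per kilobase of merged (union) exon, on a log axis and grouped by role. ITGA5 is the highest in each library, followed by TLN1.

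Levels between genes are given as CPM per kilobase of merged exon, where CPM is counts scaled by the library total. The deposited FPKM divide by a length that sums overlapping annotated exons, which matched within 1% for 35 of the 44 genes and would lower genes with many isoforms. On the merged exon scale 28 of the 44 genes averaged 1 or more, TNS1 and ITGB3 among them. The limit of 1 FPKM was kept for the counts of measured genes. Among alpha subunits ITGA5 stood far above the rest on this scale, at 75.2 with IRF3 siRNA, 56.9 with YAP siRNA and 56.7 with control siRNA. It made up 74.4%, 69.1% and 65.0% of the summed alpha level in the same order of libraries. ITGA3, a laminin receptor subunit, was next at 7.59, 7.21 and 7.49, followed by ITGA7, also a laminin receptor subunit, at 5.72, 5.32 and 6.59. ITGA7 shares exons with METTL7B and BLOC1S1 on the opposite strand, and BLOC1S1 had 1388, 1366 and 1129 counts. The ITGA7 level thus depends on how shared reads were assigned. Among beta subunits ITGB1, which pairs with ITGA5 and most other alpha subunits, had levels of 19.0, 22.8 and 28.9, or 53.8%, 57.8% and 64.5% of the beta sum. ITGB5, a partner of ITGAV, had 13.4, 14.1 and 13.3, or 38.0%, 35.8% and 29.8%.

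The alpha sum was 101 with IRF3 siRNA, 82.4 with YAP siRNA and 87.2 with control siRNA, and the beta sum 35.3, 39.5 and 44.8. The within-library ratio of ITGA5 to ITGB1 was 3.96 with IRF3 siRNA, 2.49 with YAP siRNA and 1.96 with control siRNA. This ratio is free of library scaling, since both genes were counted in the same library. Scaled by library total, ITGA5 was above control and ITGB1 below it with IRF3 siRNA. With YAP siRNA ITGA5 was level on that scaling and ITGB1 below.

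**Figure D3:**
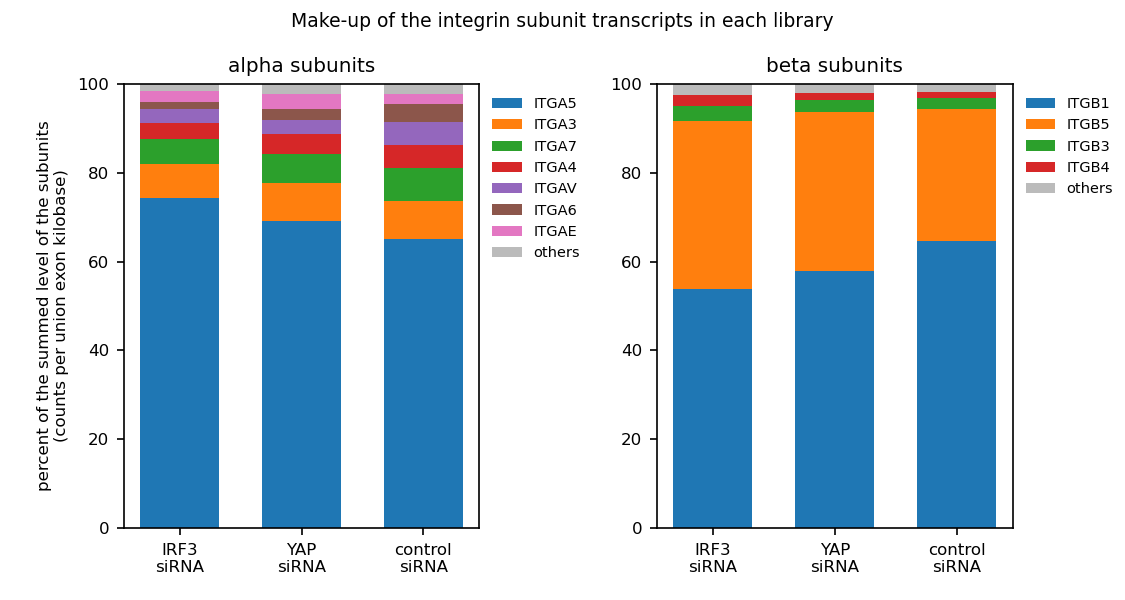
Share of each alpha subunit (left) and beta subunit (right) in the summed level of its class, in percent, for IRF3, YAP and control siRNA from left to right. ITGA5 takes 74.4%, 69.1% and 65.0% of the alpha sum and ITGB1 53.8%, 57.8% and 64.5% of the beta sum.

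Of the alpha subunits 7 of 16 were measured. ITGA5 (ENSG00000161638, minus strand, chr12:54395261-54419460, hg38) had 44.7 FPKM with IRF3 siRNA, 33.8 with YAP siRNA and 33.7 with control siRNA, from 8510, 6204 and 5991 counts. The IRF3 siRNA library stood alone above the other two. Its count ratio was 1.33 (1.28 to 1.37) for IRF3 siRNA against control, 1.004 (0.969 to 1.04) for YAP siRNA against control and 1.32 (1.28 to 1.36) for IRF3 siRNA against YAP siRNA. With TMM scaling of the counts, the ITGA5 log2 ratio for YAP siRNA against control was 0.10, against 0.006 on FPKM plus 1. Of the 26 genes ITGA5 had the largest ratio in the direct comparison.

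ITGA6 (ENSG00000091409, plus strand, chr2:172427354-172506282), a laminin receptor subunit, went the other way and was low throughout. It had 0.895 FPKM with IRF3 siRNA, 1.22 with YAP siRNA and 2.08 with control siRNA, from 144, 189 and 313 counts. The count ratio was 0.430 (0.350 to 0.525) for IRF3 siRNA against control, 0.586 (0.486 to 0.704) for YAP siRNA against control and 0.734 (0.586 to 0.916) for IRF3 siRNA against YAP siRNA. On the log2 scale with 1 FPKM added these were -0.70, -0.47 and -0.23, since the added FPKM compresses low genes. It was the 1 measured member of 26 whose count ratio was under 0.5 in a comparison with control. Of all 11103 measured genes, 342 had a count ratio of 0.5 or less with IRF3 siRNA and 305 with YAP siRNA. A count of 1 among 26 does not set the members apart.

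ITGAV, the alpha subunit of the vitronectin receptors, had 1.95 FPKM with IRF3 siRNA, 1.63 with YAP siRNA and 2.71 with control siRNA, from 396, 319 and 513 counts. Both siRNA libraries were below control, with count ratios of 0.721 (0.631 to 0.823) and 0.603 (0.523 to 0.695). The ratio of IRF3 siRNA to YAP siRNA was 1.20 (1.03 to 1.39). ITGA4, a fibronectin and VCAM1 receptor subunit, had log2 ratios of -0.22 and -0.23, ITGA7 of -0.15 and -0.23 and ITGA3 of 0.02 and -0.04 for IRF3 and YAP siRNA against control. ITGAE, which binds E-cadherin when paired with ITGB7, was above control in both, with 264 and 266 counts against 194 and count ratios of 1.27 (1.05 to 1.54) and 1.33 (1.10 to 1.61). ITGAE shares exons with GSG2, and their summed log2 ratios were -0.01 and 0.14. ITGA7 was 0.08 and 0.06 when summed with its overlapping genes.

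Among beta subunits 2 of 8 were measured. ITGB1 (ENSG00000150093, minus strand, chr10:32900319-33005792) had 10.7 FPKM with IRF3 siRNA, 12.9 with YAP siRNA and 16.3 with control siRNA, from 1704, 1973 and 2424 counts. The libraries kept this order with gaps beyond counting error. The count ratio was 0.656 (0.617 to 0.699) for IRF3 siRNA against control, 0.789 (0.743 to 0.838) for YAP siRNA against control and 0.832 (0.779 to 0.888) for IRF3 siRNA against YAP siRNA. A processed pseudogene, ITGB1P1, had 243, 301 and 357 counts in the same order, and reads may be split between them. Summed with it, ITGB1 had count ratios of 0.654, 0.793 and 0.824. ITGB5 had log2 ratios of 0.00 and 0.07 against control, so the alphaV partner did not share the lower ITGB1 values.

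Of the 7 actin linkers and integrin activators, 6 were measured, and all except TLN1 were below control with both siRNAs. Their median log2 ratio was -0.44 under IRF3 siRNA and -0.36 under YAP siRNA, and the count interval lay below 1 for 5 of 6 and 6 of 6, where over all genes it did for 32.6% and 30.2%. With YAP siRNA the 6 include TLN1, whose log2 ratio of -0.09 rose to as high as -0.006 under other processing. After removal of the gene length, level and GC trend described below, these medians were -0.17 and -0.14, and TNS3 turned to 0.01 with YAP siRNA. None was past 2-fold.

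Vinculin (VCL, ENSG00000035403, plus strand, chr10:73995193-74121363), which couples talin to actin, had 18.9 FPKM with IRF3 siRNA, 19.3 with YAP siRNA and 30.4 with control siRNA, from 4349, 4287 and 6542 counts. The siRNA libraries lay together and well under control. The count ratio was 0.621 (0.597 to 0.645) for IRF3 siRNA and 0.635 (0.611 to 0.660) for YAP siRNA against control, and 0.977 (0.936 to 1.02) between them. Its log2 ratios of -0.66 and -0.63 stood at percentiles 3.92 and 3.84 of all measured genes. AP3M1, on the opposite strand with overlapping exons, had 367 counts with IRF3 siRNA, 366 with YAP siRNA and 578 with control siRNA, and the summed log2 ratios were -0.67 and -0.63.

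The talins differed. TLN1, the widely expressed talin, had 44.0 FPKM with IRF3 siRNA, 39.1 with YAP siRNA and 41.8 with control siRNA, from 7732, 6611 and 6851 counts. Its count ratio was 1.05 (1.02 to 1.09) and 0.936 (0.904 to 0.968) against control, and 1.13 (1.09 to 1.16) for IRF3 siRNA against YAP siRNA. TLN2, its paralog, had 2.39 FPKM with IRF3 siRNA, 2.60 with YAP siRNA and 3.99 with control siRNA, from 700, 735 and 1093 counts. TLN2 was therefore low against control in both, at count ratios of 0.598 (0.543 to 0.658) and 0.652 (0.593 to 0.717). The ratio of TLN1 to TLN2 within a library, per kilobase of merged exon, was 17.8 with IRF3 siRNA, 14.5 with YAP siRNA and 10.1 with control siRNA.

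Both kindlins were below control. FERMT1, the kindlin typical of epithelia, had 1.72 FPKM with IRF3 siRNA, 1.93 with YAP siRNA and 2.83 with control siRNA, from 184, 198 and 282 counts, and count ratios of 0.609 (0.503 to 0.736) and 0.681 (0.565 to 0.819). FERMT2, the widely expressed kindlin, had 3.48, 3.65 and 4.83 FPKM in that order, from 935, 944 and 1211 counts. Its count ratios were 0.721 (0.661 to 0.786) and 0.756 (0.693 to 0.824). TNS3, a tensin that binds beta tails, had log2 ratios of -0.24 and -0.19.

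The ILK, PINCH and parvin complex joins beta tails to actin, and 3 of its 4 listed genes were measured. ILK, its pseudokinase, had 17.9 FPKM with IRF3 siRNA, 15.2 with YAP siRNA and 14.1 with control siRNA, from 2177, 1780 and 1593 counts. Its count ratios were 1.28 (1.20 to 1.36) and 1.08 (1.01 to 1.16) against control and 1.18 (1.11 to 1.25) for IRF3 siRNA against YAP siRNA. ILK overlaps TAF10 on the opposite strand, which had 1232 counts with IRF3 siRNA, 1227 with YAP siRNA and 1650 with control siRNA, and whether the counting used strand is not given. Summed over both genes the log2 ratios against control were -0.03 and -0.15, so the direction for ILK depends on how shared reads were assigned. LIMS1, the PINCH adaptor, had log2 ratios of -0.17 and -0.28 for IRF3 and YAP siRNA against control. PARVA, the actin-binding parvin, had 1.77 FPKM with IRF3 siRNA, 2.15 with YAP siRNA and 2.21 with control siRNA, from 238, 279 and 278 counts. The IRF3 siRNA library had a count ratio of 0.799 (0.669 to 0.954) to control and 0.821 (0.688 to 0.980) to YAP siRNA, and the YAP siRNA library 0.973 to control, with an interval that holds 1. With the trend removed PARVA turned to 0.17 and 0.31 against control. The trend used a merged exon length of 12849 bases for PARVA, while its deposited FPKM rest on 9001 bases. These 2 values are therefore less certain.

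Of the signalling kinases and adaptors all 4 were measured, with log2 ratios to control between -0.38 and 0.11. PTK2, which encodes FAK, had 0.942 FPKM with IRF3 siRNA, 1.16 with YAP siRNA and 1.52 with control siRNA, from 438, 518 and 662 counts. Its count ratios to control were 0.618 (0.546 to 0.698) and 0.759 (0.675 to 0.852), the lowest of the 4. SRC, its partner kinase, had log2 ratios of 0.05 and 0.11, and PXN, the paxillin scaffold, of -0.01 and -0.12. BCAR1, which encodes the p130Cas adaptor, had 3.85 FPKM with IRF3 siRNA, 3.16 with YAP siRNA and 3.52 with control siRNA, from 1363, 1077 and 1162 counts. It lay above control with IRF3 siRNA, at 1.10 (1.01 to 1.19), and below it with YAP siRNA, at 0.899 (0.826 to 0.977). The ratio of IRF3 siRNA to YAP siRNA was 1.22 (1.12 to 1.32).

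The zyxin family of LIM proteins, which gather at adhesions under tension, had 2 of 3 members measured and held the highest ratio of the set. TRIP6 had 15.9 FPKM with IRF3 siRNA, 14.1 with YAP siRNA and 11.7 with control siRNA, from 1367, 1163 and 935 counts. Both siRNA libraries were above control, with count ratios of 1.36 (1.26 to 1.48) and 1.21 (1.11 to 1.32), and the ratio of IRF3 siRNA to YAP siRNA was 1.13 (1.05 to 1.22). ZYX itself had 15.1 FPKM with IRF3 siRNA, 12.7 with YAP siRNA and 13.5 with control siRNA, from 1643, 1327 and 1365 counts. Its count ratio was 1.12 (1.05 to 1.21) for IRF3 siRNA, 0.943 (0.873 to 1.02) for YAP siRNA and 1.19 (1.11 to 1.28) for IRF3 siRNA against YAP siRNA.

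Caveolins form the coat of caveolae, membrane pits that lie near adhesions. CAV1 had 1.45 FPKM with IRF3 siRNA, 1.71 with YAP siRNA and 2.40 with control siRNA, from 246, 279 and 380 counts. Both siRNA libraries were below control, at count ratios of 0.604 (0.513 to 0.711) and 0.712 (0.608 to 0.833). CAV2, which assembles with CAV1, had 212 counts with IRF3 siRNA, 206 with YAP siRNA and 217 with control siRNA, and log2 ratios of -0.08 and -0.07. Within a library, CAV1 was 1.97 times CAV2 with IRF3 siRNA, 2.30 times with YAP siRNA and 2.97 times with control siRNA, per kilobase of merged exon.

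In the direct comparison of IRF3 siRNA with YAP siRNA, in which no control library enters, members were above 0 in 12 cases and below it in 14. Log2 ratios ran from -0.25 for ITGB1 to 0.39 for ITGA5. The count interval lay above 1 for 8 of 26 and below 1 for 4, or 30.8% and 15.4%, where over all genes it was 16.0% and 15.6%. After ITGA5 the highest were ZYX, ILK and BCAR1 at 0.24, 0.22 and 0.22, of which ILK was 0.12 when summed with TAF10, and after ITGB1 the lowest were ITGA6 and PARVA at -0.23 and -0.19.

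The 18 genes under the limit had between 0 and 373 counts per library, and a count ratio means little for most of them. ITGB6, the epithelial partner of ITGAV, had 1 count with IRF3 siRNA, 1 with YAP siRNA and 0 with control siRNA. ITGA1, a collagen and laminin receptor subunit, had 10 counts with IRF3 siRNA, 15 with YAP siRNA and 37 with control siRNA, with a ratio to control of 0.252 (0.112 to 0.518) for IRF3 siRNA and 0.393 (0.200 to 0.734) for YAP siRNA. It shares exons with PELO on the same strand, which had 868, 880 and 781 counts in that order. How shared reads were assigned is not given, so the ITGA1 ratios are open to it. ITGA9 had 7 counts with IRF3 siRNA, 30 with YAP siRNA and 21 with control siRNA. ITGA1 and ITGA9 were singled out after their values were seen. TNS1, the highest of the 18, had 321 with IRF3 siRNA, 299 with YAP siRNA and 373 with control siRNA.

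**Figure D4:**
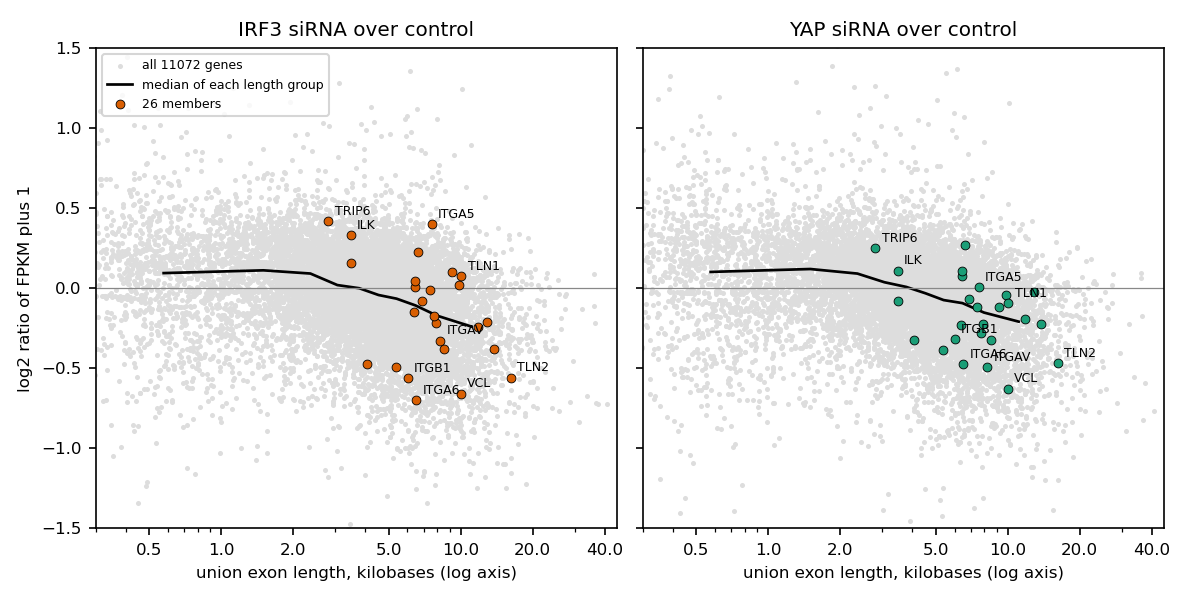
Log2 ratio of FPKM plus 1 against merged (union) exon length on a log axis, for the 26 measured genes (coloured), all 11072 genes with a length (grey, cropped at the frame) and the median of 10 groups of equal size by length (line), for IRF3 siRNA and YAP siRNA against control. Of the 26 genes, 21 fall in the 3 groups of longest genes, where the line is below 0.

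Gene length moved with these ratios and bears on the medians above. The measured members had a median merged exon length of 7518.5 bases, against 4133 bases over 11072 measured genes with a length, and 21 of 26 lay in the 3 longest of 10 equal groups by length. Over all genes the longest group had a median log2 ratio to control of -0.24 under IRF3 siRNA and -0.21 under YAP siRNA, and the shortest group 0.09 and 0.10. A trend in level, length and GC content over 11066 genes took up 23.2% and 19.0% of the variance of the log2 ratios against control, and 3.12% in the direct comparison. With it removed, the members' medians were 0.02, -0.00 and 0.01 for IRF3 siRNA against control, YAP siRNA against control and IRF3 siRNA against YAP siRNA. VCL stayed low, at -0.46 in both control comparisons, as did ITGA6 at -0.41 and -0.23, ITGB1 at -0.38 and -0.18 and TLN2 at -0.30 and -0.20. ITGA5 was 0.36 and 0.00. FERMT2 was -0.08 and -0.07, ITGAV -0.02 and -0.23, and PTK2 0.01 and 0.13. TRIP6 fell to 0.24 and 0.13, and ZYX to 0.005 and -0.17. Removing the trend also turned CAV2 to 0.23 and 0.19, ITGA4 to 0.10 and 0.04, and LIMS1 to 0.14 with IRF3 siRNA. ITGAE was 0.43 and 0.45. What sets the length trend was not tested.

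Other genes of integrin adhesion stand beside the members. Of 78 listed, 55 were measured, and their median log2 ratio to control was -0.09 under IRF3 siRNA and -0.08 under YAP siRNA. With the level, length and GC trend removed these medians were -0.09 and -0.06. With IRF3 siRNA 0 were higher and 0 lower past 2-fold, where over all genes 0.387% and 0.612% were. Of the 55, 21 were above 0 and 34 below, or 61.8% below against 53.9% of all genes. Count ratios to control of 0.5 or less numbered 4 and of 2 or more 0, against 342 and 111 of all 11103 genes. For YAP siRNA 18 were above 0 and 37 below, or 67.3% below against 53.4% of all genes. The counts past 2-fold were 0 higher and 1 lower, against 0.351% and 0.468% of all genes. The 1 was SHC1, an adaptor between receptors and RAS, with 23.5 FPKM with IRF3 siRNA, 12.8 with YAP siRNA and 26.7 with control siRNA. SHC1 sat right at the limit, with a log2 ratio of -1.0005 for YAP siRNA against control. Its 2702, 1420 and 2862 counts gave a ratio of 0.481 (0.451 to 0.513) for YAP siRNA against control.

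With IRF3 siRNA the 4 lowest of the 55 were KANK2, a talin-binding protein at the rim of adhesions, at a log2 ratio of -0.93, PAK2, a kinase downstream of RAC and CDC42, at -0.93, ARHGEF6, an exchange factor for these, at -0.90, and PTPN11, a phosphatase, at -0.83. The 4 highest were CD151, a tetraspanin that binds laminin receptors, at 0.44, CSK, which restrains SRC, at 0.36, and the filamins FLNA and FLNC, which bind beta tails and actin, at 0.29 and 0.25. KANK2 had 8.71 FPKM with IRF3 siRNA, 15.1 with YAP siRNA and 17.5 with control siRNA, so its low value was in 1 library. With YAP siRNA the lowest after SHC1 were PTPN11 at -0.73, PAK2 at -0.72 and YES1, a SRC family kinase, at -0.70. The highest were CD151 at 0.27, CSK at 0.19, NCK1 at 0.16 and GIT1 at 0.15.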

How the data were processed

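RNA from 3 HGC-27 cultures was sequenced, 1 library per group, with 13949401 to 14941556 counts each. The deposited table gives FPKM and raw counts per gene, per the file headers. Reads were aligned with TopHat2 2.0.9 to hg38, per the submitters' processing notes. Which counter, strand setting and annotation were used is not given here. From counts and FPKM, the authors' gene length equals the sum of all distinct annotated exons (within 1% for 86.8% of 10673 genes with over 100 control counts, GENCODE 29). Levels between genes were therefore recomputed per kilobase of merged exon.

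Log2 ratios used FPKM plus 1, which understates changes of low genes, over the 11103 genes with a mean of at least 1 FPKM. FPKM stayed the main unit although counts are present. A call needed 2-fold. Count ratios, scaled by library total, have exact Clopper-Pearson 95% intervals for counting error only. With 1 library per group there are no p-values. The members and lists were chosen with earlier results of these data known. Every measured member was named, with all values for the 8 largest log2 ratios per comparison, the highest alpha and beta subunit and ITGAV, and with 4 genes per direction from the other adhesion genes. R 4.3.3 with edgeR 4.0.16 (scaling alternative only), matplotlib 3.10.9, patsy 1.0.2, pandas 2.3.3, scipy 1.17.1, numpy 2.4.6 and Python 3.11.15 were used, and the scripts were tested on simulated data.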

Additional observations from a re-analysis of the deposited data

How the results depend on the processing

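The 2-fold counts and the medians were recomputed with a pseudocount of 0.1, mean FPKM filters of 5 and none, median centring, a 3-fold limit, TMM and median-of-ratios scaling of counts, removal of a level, length and GC trend, and sums over genes with overlapping exons. A 1.5-fold limit, merged exon lengths and the sum of ITGB1 with ITGB1P1 were chosen after seeing the data. ITGA6 was the 1 member lower past 2-fold with IRF3 siRNA against control with the pseudocount of 0.1 and with TMM and median-of-ratios scaling (1, 1 and 1). Over all measured genes 2.56%, 1.40% and 1.34% were lower in these settings, against 0.612% in the main one, so the calls rose in general. At 1.5-fold 2 members were lower with IRF3 siRNA and 1 with YAP siRNA. Every other count of members was 0. The median for IRF3 siRNA against control was 0.12 with the filter of 5, which leaves 8 members, and 0.0225 with the trend removed. The median for YAP siRNA against control was -0.00198 with the trend removed, and for IRF3 siRNA against YAP siRNA 0.17 with the filter of 5. Over all genes that passed the filter of 5, the median was 0.06 for IRF3 siRNA against control. For IRF3 siRNA against YAP siRNA it was 0.004. Single members changed sign most often without the trend, 6 of 26 with IRF3 siRNA and 7 of 26 with YAP siRNA against control, CAV2, PTK2, PARVA and ITGA4 in both, PXN and LIMS1 with IRF3 siRNA, and TNS3, ITGA3 and BCAR1 with YAP siRNA. With overlapping genes summed 4 and 2 did, and with any other setting at most 3. No paired analysis was possible because each group is 1 library, and for the same reason no library could be left out. Members under 100 counts are limited by depth.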

Other observations

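Genes that neighbour the members or carry like names were read apart from them. PXN-AS1, antisense to PXN, had 120 counts with IRF3 siRNA, 112 with YAP siRNA and 82 with control siRNA, and ratios to control of 1.37 (1.02 to 1.83) and 1.32 (0.987 to 1.78). ITGB3BP, a centromere protein first found as a partner of the ITGB3 tail, had 413, 377 and 303 counts, and ratios of 1.27 (1.09 to 1.48) and 1.21 (1.03 to 1.41). PTRF, the cavin that coats caveolae with CAV1, had 84.0 FPKM with IRF3 siRNA, 82.5 with YAP siRNA and 79.1 with control siRNA, while CAV1 was below control in both siRNA libraries. ITGA2B, the platelet alpha subunit, had 75, 86 and 77 counts, with GP9, PF4 and PPBP at 0 in every library.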
